A study of Mus musculus with 8 samples.

Results

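The mitosis and spindle genes are a set of 40 named genes whose products drive chromosome segregation and cell division. They were chosen by symbol, with earlier results of these data known. Where a gene had several probes, its brightest on average stands for it. Probes were named for 35 of the 40, out of 17711 genes with a probe, and 22 of the 35 had a detection p under 0.05 on at least 4 of the 8 arrays and were tested, out of 9494 genes tested. The probe annotation used here names no probe for Ccnb1, Cdkn3, Cenpf, Kif20a and Mki67, so these 5 were not analysed here. RNA came from the distal colon of 4 male wild-type C57BL/6 mice of 10 to 12 weeks, with no treatment named. Each mouse gave a crypt base sample and a surface sample cut out by laser capture microdissection, which makes 4 samples per region, numbered 1 to 4. The RNA was amplified before labelling and read on Illumina bead arrays. The comparison asks how transcript levels differ between the base of the crypt and the surface that faces the lumen.

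In the colon, stem cells and dividing progenitors lie in the lower crypt, and their progeny stop dividing as they move up to the surface. Entry into mitosis depends on Cdk1 with its cyclins. Aurora and Polo-like kinases then build the spindle, the kinetochore ties chromosomes to it, and a checkpoint holds back the anaphase-promoting complex until all chromosomes are attached. Transcripts of many of these genes peak late in the cell cycle. Repression of such genes in resting cells is known to pass through the cell cycle homology region, called CHR, which the DREAM complex binds. Their activation is known to use CCAAT boxes, which NF-Y binds.

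Promoter windows from RefSeq (build GRCm38.p6), reaching from 250 bases before to 50 bases after the annotated start, were at hand for 35 of the 40 genes. Where a gene had several windows, the first listed was used, and windows at its other starts were not searched. The CHR sequence TTTGAA, searched on both strands, was in 26 of these 35 windows (74.3%), against 18.1% of the windows of 27025 genes. It lay within 50 bases of the start in 22 of them (62.9%, against 4.92% of all genes), a distance chosen after the positions were seen. The variant TTCGAA was in 3 of 35 windows (8.57%, against 1.57%). CCAAT was in 27 (77.1%, against 37.9%), and 24 windows held CCAAT together with a CHR sequence of either form (68.6%, against 7.7%). Sequences of E2F type were searched in 4 forms on both strands. They are TTGGCGC in the first form, TTCCCGC in the second form, TTCGCGC in the third form and TTGCCGC in the last. At least 1 of them was in 6 windows (17.1%, against 9.69%). These matches describe letters in a window and do not show that a factor binds there.

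The windows below are those of the gene with the largest fall in each role, where a searched sequence was present, and they show how CHR and CCAAT sit around the start. Each line runs 5′ to 3′ along the gene from 120 bases before to 50 bases after the annotated start, with CHR and CCAAT matches of either strand in capitals. A CCAAT on the other strand reads ATTGG, and TTTGAA on the other strand reads TTCAAA.
Cdca3: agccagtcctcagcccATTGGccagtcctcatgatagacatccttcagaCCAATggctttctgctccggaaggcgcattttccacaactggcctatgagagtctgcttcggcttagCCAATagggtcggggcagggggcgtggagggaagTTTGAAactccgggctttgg
Plk1: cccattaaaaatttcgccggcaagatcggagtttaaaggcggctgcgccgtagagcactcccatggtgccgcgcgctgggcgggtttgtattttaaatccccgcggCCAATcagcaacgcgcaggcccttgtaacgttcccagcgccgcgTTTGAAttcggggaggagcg
Cdca8: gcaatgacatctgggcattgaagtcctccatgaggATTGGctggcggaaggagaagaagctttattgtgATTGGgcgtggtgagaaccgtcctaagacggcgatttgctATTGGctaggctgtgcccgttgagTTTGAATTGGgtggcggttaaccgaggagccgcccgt
Kif23: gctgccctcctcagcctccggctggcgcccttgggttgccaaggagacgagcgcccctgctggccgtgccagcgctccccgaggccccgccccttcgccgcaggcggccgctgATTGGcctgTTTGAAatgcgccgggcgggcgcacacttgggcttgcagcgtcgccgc
Cenpa: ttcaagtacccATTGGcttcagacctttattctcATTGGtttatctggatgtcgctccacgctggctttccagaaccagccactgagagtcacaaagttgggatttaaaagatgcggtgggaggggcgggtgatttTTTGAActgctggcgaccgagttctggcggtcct
Anln: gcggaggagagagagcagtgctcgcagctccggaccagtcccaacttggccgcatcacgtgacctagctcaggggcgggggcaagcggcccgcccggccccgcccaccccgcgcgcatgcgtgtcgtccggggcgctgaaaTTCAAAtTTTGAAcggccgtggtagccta
Cdc20: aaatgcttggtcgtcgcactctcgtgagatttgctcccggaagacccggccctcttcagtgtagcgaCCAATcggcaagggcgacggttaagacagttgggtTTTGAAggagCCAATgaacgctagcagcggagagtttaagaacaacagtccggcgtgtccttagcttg
Bub1b: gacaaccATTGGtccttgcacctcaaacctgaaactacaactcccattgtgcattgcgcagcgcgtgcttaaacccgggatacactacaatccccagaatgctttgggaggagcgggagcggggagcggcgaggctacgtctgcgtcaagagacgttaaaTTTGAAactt
The stretches are Cdca3 (chr6:124830056-124830225, plus strand), Plk1 (chr7:122159315-122159484, plus strand), Cdca8 (chr4:124936868-124937037, minus strand) and Kif23 (chr9:61946750-61946919, minus strand). The others are Cenpa (chr5:30666766-30666935, plus strand), Anln (chr9:22389157-22389326, minus strand), Cdc20 (chr4:118437294-118437463, minus strand) and Bub1b (chr2:118598091-118598260, plus strand). Counting the first transcribed base as 1, TTTGAA began at base 31 in Cdca3 and in Plk1, at base 14 in Cdca8, at base 3 in Kif23 and at base 17 in Cenpa. It lay on both strands of Anln, at bases 22 and 29, began 18 bases before the start in Cdc20 and began at base 41 in Bub1b. In Cdca8 the CHR match shares 1 base with a CCAAT match. The window of Nusap1, which had the largest fall of all, held none of the searched sequences, and the same was true of 3 other members.

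**Figure D1:**
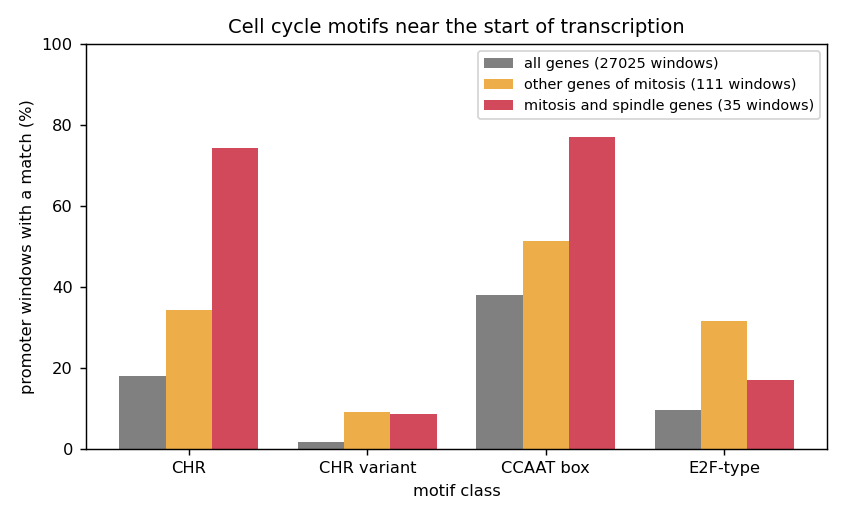
Bars give the percentage of promoter windows with at least 1 match to the CHR sequence, its variant, the CCAAT box or an E2F-type sequence, for all genes, for 111 other genes of mitosis and for the 35 mitosis and spindle genes with a window. CHR stood at 74.3% in the last group, 34.2% in the other genes of mitosis and 18.1% in all genes.

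At the surface, 17 of the mitosis and spindle genes were lower than at the crypt base and 0 were higher. The falls ran from 1.34-fold for Top2a to 2.83-fold for Nusap1, and 10 of the 17 were at least 2-fold. Of all 9494 genes tested, 10.1% were lower and 12.1% were higher. As the set was chosen with earlier results of these data known, these shares are given for scale and not as a test. The test was limma on log2 signals with the replicate number as a block and Benjamini-Hochberg adjustment over all genes tested, with an adjusted p under 0.05 as the threshold. Signals at or under 5.52 on the log2 scale, the level above which as many values lie as were detected, are called background. In 18 of the 22 tested genes, every surface sample lay below every crypt base sample, which held for 9.59% of all genes tested. The 17 that were called are among these 18, and since the call used the same values, this is not further support for it. In 0 of the 22 was every surface sample above every crypt base sample (9.72% of all genes tested). Among the 17, the gap between the groups ranged from 0.02 in Bub1b to 0.63 in Nusap1 on the log2 scale. Because a gene that is detected at the crypt base alone can enter the test, the 35 genes with a probe were also fitted with no detection filter. Then 16 of 35 were lower and 0 higher, against 4.67% and 5.86% of 17711 genes, and the median change was -0.37 on the log2 scale, against -0.00190 over all of them. Over the tested genes the median change was -0.94 for the 22 and -0.01 for all 9494. In bulk samples like these, fewer dividing cells and less RNA per dividing cell cannot be told apart.

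**Figure D2:**
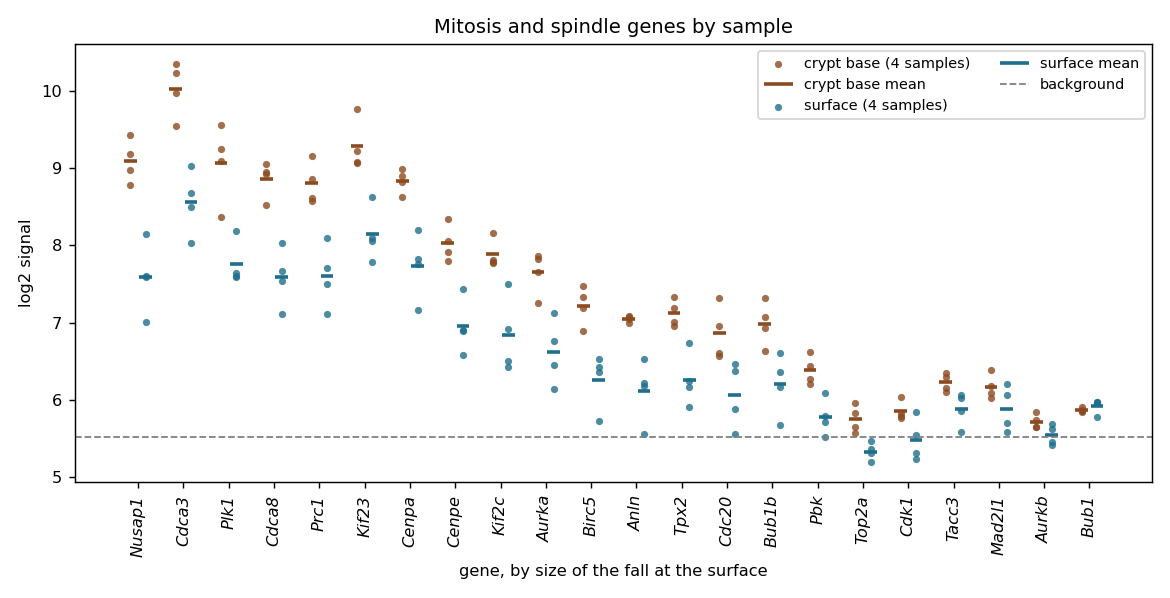
Points give the log2 signal of the 22 tested genes in each crypt base sample and each surface sample, bars mark the group means, and the dashed line marks the background level of 5.52. The 17 genes from Nusap1 to Top2a show groups that do not overlap. The 5 to their right did not pass, and of these Tacc3 has groups that do not overlap.

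Genes of spindle assembly held the largest fall. Nusap1 (gene ID 108907) encodes a protein that binds and bundles spindle microtubules. Its log2 signals at the crypt base were 9.18, 8.78, 8.97 and 9.43 in samples 1 to 4, and at the surface they were 7.01, 8.14, 7.60 and 7.59. Surface 1 was the lowest and surface 2 the highest of the surface samples, and the groups were well separated. The change was -1.50 ± 0.24 (SE, n = 4 per region), which is 2.83-fold lower at the surface (limma, adjusted p = 0.0129). Prc1, which crosslinks the microtubules of the midzone between separating chromosomes, changed by -1.20 ± 0.25, and Tpx2, which activates Aurora A on the spindle, by -0.86 ± 0.17. Tacc3, a partner of the microtubule polymerase on kinetochore fibres, had log2 signals of 6.30, 6.16, 6.10 and 6.35 at the crypt base and 5.58, 6.03, 5.86 and 6.07 at the surface. These groups did not overlap, but the change of -0.34 ± 0.11 did not pass (adjusted p = 0.0821, 95% interval from -0.62 to -0.06). Hmmr and Ckap2, which encode spindle proteins, were at background on all 8 arrays and were not tested.

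Cdca3, known to promote entry into mitosis through the destruction of Wee1, was measured at 10.23, 9.55, 9.97 and 10.35 at the crypt base and at 8.03, 9.02, 8.68 and 8.50 at the surface. The change was -1.46 ± 0.27, or 2.76-fold (adjusted p = 0.0164). Top2a, the topoisomerase that untangles sister chromosomes, changed by -0.42 ± 0.09 (adjusted p = 0.0276). Its 4 crypt base signals, 5.58 to 5.96, were above the background of 5.52 and its 4 surface signals, 5.19 to 5.47, were under it, so no surface signal of Top2a stood above background. With all values raised to at least the background level, Top2a had a change of -0.24 and did not pass (adjusted p = 0.111). A further Top2a probe, also detected on 4 arrays, had a difference of -0.31. Its mean was 5.60 at the crypt base and 5.30, under background, at the surface.

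All 3 genes of the mitotic kinase group fell. Plk1 (gene ID 18817), the Polo-like kinase, had log2 signals of 9.56, 8.37, 9.24 and 9.09 at the crypt base and 7.60, 8.18, 7.64 and 7.59 at the surface. Crypt base 2 and surface 2 came within 0.19 of each other, while the other 3 surface samples lay close together. Its change was -1.31 ± 0.28, or 2.48-fold (adjusted p = 0.0244). Aurka, the Aurora A kinase of the spindle poles, changed by -1.03 ± 0.24, and Pbk, a kinase of mitotic cells, by -0.61 ± 0.14.

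In the chromosomal passenger complex, which corrects faulty attachments and steers cytokinesis, Cdca8 (gene ID 52276, the borealin subunit) was 8.94, 8.52, 9.05 and 8.93 at the crypt base and 7.11, 8.03, 7.67 and 7.54 at the surface. That is a change of -1.27 ± 0.21, or 2.41-fold (adjusted p = 0.0133). Birc5, the survivin subunit, changed by -0.96 ± 0.19. The kinase of the complex, Aurkb, was near background, with 5.74, 5.65, 5.66 and 5.84 at the crypt base and 5.42, 5.62, 5.46 and 5.69 at the surface. All 4 pairs were lower at the surface, but the groups overlapped and the change of -0.17 ± 0.08 did not pass (adjusted p = 0.183, 95% interval from -0.37 to 0.02). Incenp, the scaffold of the complex and not itself one of the 40 genes, changed by -0.61 ± 0.10 (adjusted p = 0.0132). It was named here after its values were seen, so it is not further support for a fall of the complex.

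Centromere and kinetochore genes divided by detection. Cenpa (gene ID 12615), the histone H3 variant that marks centromeres, was 8.99, 8.62, 8.90 and 8.81 at the crypt base and 7.17, 8.19, 7.82 and 7.76 at the surface. The change was -1.09 ± 0.21, or 2.13-fold (adjusted p = 0.0192). Cenpe, a kinesin of the kinetochore, changed by -1.08 ± 0.20, with a detection p under 0.05 on 6 arrays although all 8 signals exceeded background. Ndc80, Nuf2 and Spc25, subunits of the complex that grips microtubules, were not tested. Ndc80 was at background on all 8 arrays, and Nuf2 and Spc25 reached 5.61 and 5.60 at most. In the fit with no detection filter their changes were 0.09, 0.09 and -0.007, and none passed. Spc24, the remaining subunit of that complex and not one of the 40, changed by -1.17 ± 0.23 (adjusted p = 0.0204). Its list was drawn up with earlier results of these data known, so Spc24 is not further support for a fall of the complex.

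Both tested kinesin motors fell. Kif23 (gene ID 71819), the motor of the midzone, was 9.76, 9.06, 9.22 and 9.08 at the crypt base and 8.09, 8.62, 8.06 and 7.79 at the surface. Crypt base 1 and surface 2 were the high samples of their groups. The change was -1.14 ± 0.19, or 2.20-fold (adjusted p = 0.0143). Kif2c, which takes microtubules apart at centromeres, changed by -1.04 ± 0.22, and Kif11, the motor that pushes spindle poles apart, was at background. For cytokinesis, Anln (gene ID 68743), which encodes the scaffold anillin of the contractile ring, was 6.99, 7.07, 7.05 and 7.09 at the crypt base and 5.55, 6.53, 6.18 and 6.22 at the surface. The crypt base samples were nearly equal and the surface samples spread over almost 1 log2 unit. The change was -0.93 ± 0.15, or 1.91-fold (adjusted p = 0.0122). Ect2 and Racgap1, which control the GTPase RhoA at the cleavage furrow, were at background.

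In the spindle checkpoint, Bub1b (gene ID 12236), which encodes the BubR1 checkpoint protein, was 7.07, 6.63, 6.93 and 7.32 at the crypt base and 5.68, 6.61, 6.17 and 6.37 at the surface. Crypt base 2 and surface 2 were all but equal. The change was -0.78 ± 0.21, or 1.72-fold (adjusted p = 0.0469), and it did not pass with no detection filter (adjusted p = 0.0569). Mad2l1, which encodes the Mad2 inhibitor of Cdc20, was 6.08, 6.02, 6.18 and 6.38 at the crypt base and 5.59, 6.20, 5.70 and 6.06 at the surface. It was higher at the surface in replicate 2 and lower in the other 3 pairs, and the change of -0.28 ± 0.13 did not pass (adjusted p = 0.184, 95% interval from -0.60 to 0.04). Without replicate 2 it passed, with a change of -0.43 (adjusted p = 0.0251). Bub1, a checkpoint kinase, was 5.91, 5.85, 5.86 and 5.87 at the crypt base and 5.96, 5.78, 5.98 and 5.98 at the surface. With a change of 0.05 ± 0.08 it was the tested gene whose value was not lower at the surface (adjusted p = 0.697, 95% interval from -0.13 to 0.23). Ttk, the Mps1 kinase, was at background.

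Cdc20 (gene ID 107995), the activator of the anaphase-promoting complex, was 6.57, 6.60, 6.95 and 7.32 at the crypt base and 5.55, 6.46, 5.88 and 6.37 at the surface. The change was -0.80 ± 0.17, or 1.74-fold (adjusted p = 0.0240). Without the replicate block it did not pass (adjusted p = 0.0631), and it was the sole gene of the 17 that lost its call that way, so 16 remained and 0 were higher, against 6.1% lower and 7.25% higher among all genes in that fit. Ube2c, the ubiquitin-conjugating enzyme of that complex, was at or near background, with a change of -0.32 and no call in the fit without a detection filter (adjusted p = 0.0739).

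None of the genes of Cdk1, its cyclins and its partners passed, and Cdk1 was the 1 gene of that group that could be tested. Cdk1 (gene ID 12534) was 5.77, 5.83, 5.80 and 6.04 at the crypt base and 5.24, 5.85, 5.54 and 5.32 at the surface. Surface 2 lay among the crypt base samples and surface 1 and 4 were under background. The change was -0.37 ± 0.13 (adjusted p = 0.0982, 95% interval from -0.69 to -0.05). Without replicate 2 the change was -0.50 and passed (adjusted p = 0.0380). Ccna2 and Ccnb2, which encode mitotic cyclins, and Cks2, a small Cdk-binding protein, were at or near background.

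The 13 genes with a probe that were not tested were Ube2c, Ndc80, Nuf2, Spc25, Ect2, Racgap1, Kif11, Ccna2, Ccnb2, Cks2, Hmmr, Ckap2 and Ttk. Their 104 signals ran from 4.61 to 5.72, 5 of them above background, and 8 of the 13 had no array with a detection p under 0.05. In the fit without a detection filter their changes ran from -0.32 to 0.18, and none passed (limma, lowest adjusted p = 0.0739). A missing call at this signal does not show equal levels. The promoter windows of 12 of them held TTTGAA in 10 cases, and those of 15 of the 17 genes that fell held it in 12. Of the 4 windows of tested genes that did not pass, 1 held it. Among the tested genes, the 8 with a crypt base mean above 8 fell by 1.08 to 1.50 on the log2 scale, whereas no gene of the 7 with a crypt base mean under 6.5 had a change beyond -0.61. The crypt base mean is a term of the change, and a signal near background has little room to fall, so this contrast is partly built in. Of the 17 genes that fell, 11 had other probes, 18 in all, of which 17 were detected on fewer than 2 arrays. Each fall other than that of Top2a thus rests on a single working probe. The second Top2a probe had a surface mean of 5.30, under background, so it shares the limit of the first.

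**Figure D3:**
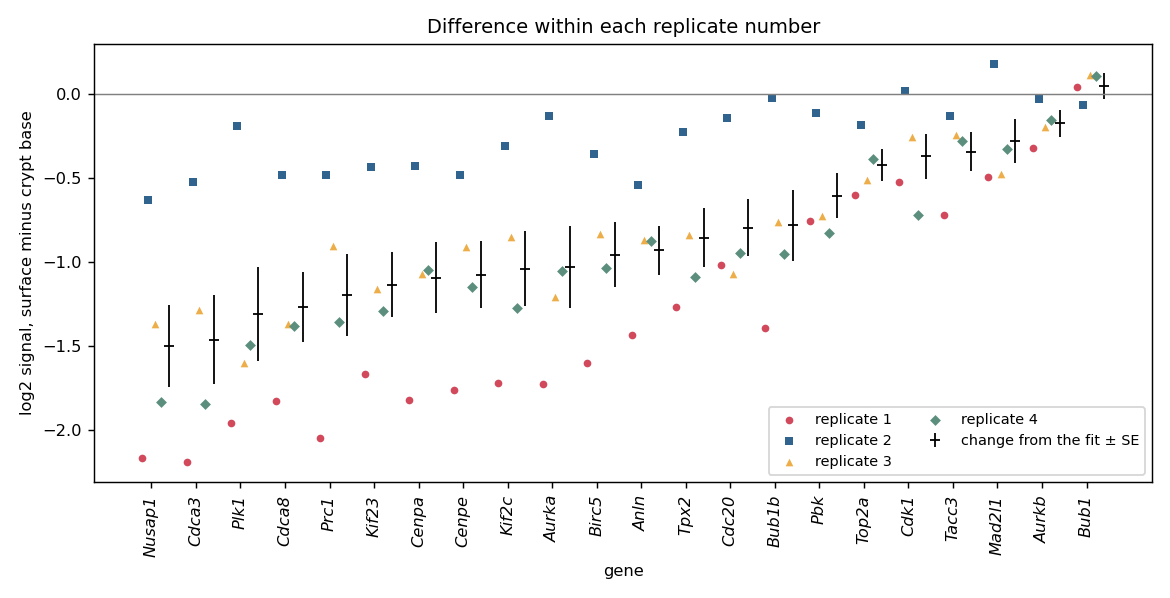
Symbols give the surface minus crypt base difference in log2 signal for each replicate number, and the black marks give the change of the fit with its SE, for the 22 tested genes. Replicate 2 lies closest to 0 and replicate 1 farthest below 0 for most genes.

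The size of the fall depended on the replicate number in nearly the same way for all of these genes. In each of the 17 genes the fall was smallest in replicate 2, where the median change was -0.36 and the range was -0.63 to -0.02. In 15 of the 17 it was largest in replicate 1, with a median of -1.72 and a range of -2.19 to -0.60. The medians were -0.91 in replicate 3 and -1.09 in replicate 4. This order was shared by other genes, since 73.5% of the 963 genes called lower also fell least in replicate 2 and 61% fell most in replicate 1. On the surface side, surface 2 was the highest surface sample in 17 of 17 genes (21.2% of all genes tested) and surface 1 the lowest in 14 (27.6%). On the other side, crypt base 2 was the lowest crypt base sample in 12 of 17 (31.1%). The shares in brackets are over all genes tested, called or not. They were not counted among the 963 genes called lower, so they cannot show whether this pattern is particular to these genes.

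The number of calls changed when a pair was left out. Without replicate 1 no gene of the 9494 passed in limma (0 called, 2512 at an unadjusted p under 0.05), and the lowest adjusted p among the mitosis and spindle genes was then 0.05002, with all 17 at an unadjusted p under 0.05. There were 19 calls without replicate 2, where 1146 of all genes tested were lower. Without replicate 3 there were 5 (Anln, Cdca3, Cdca8, Kif23 and Nusap1) beside 404 of all genes, and without replicate 4 there were 4 (the same genes apart from Cdca3) beside 219. Anln, Kif23 and Nusap1 passed in all 14 alternatives that called any of these genes. Surface 4 stood apart from the other arrays, where 199 probes differed by over 2 log2 units from the other arrays' median, against 6 to 34 on any other array, and none of these 199 was a probe of the 17 genes. Without surface 4, and without the block, 13 were called.

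Other genes of mitosis were read in the same fit. Of 147 further genes in 7 lists, 84 were tested, of which 29 were lower and 2 higher, with a median change of -0.27. That is 34.5% lower, against 10.1% of all genes tested. These lists were drawn up with earlier results of these data known, and no test was made over them. Among 19 other kinesin and spindle genes 9 fell and 0 rose. Kif22, a chromosome-arm motor, changed by -1.21 ± 0.25, Spag5, a protein of the spindle and kinetochore, by -0.99 ± 0.18, and Haus1, of the augmin complex, by -0.79 ± 0.19, while none had a positive change. Among 16 other kinetochore and centromere genes 6 fell and 0 rose. Besides Spc24, Cenpp, of the inner kinetochore, changed by -0.85 ± 0.13 and Sgo1, the protector of centromeric cohesion, by -0.65 ± 0.15. Cenpb, which binds centromeric repeats, had the largest opposite value of this list, 0.18 ± 0.09, and did not pass (adjusted p = 0.198).

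Condensin and cohesin, the ring complexes that fold chromosomes and hold sisters together, had 9 of 17 genes lower and 0 higher. That is 52.9% lower, beside 10.1% lower and 12.1% higher among all genes tested. Cdca5, the cohesion factor sororin, changed by -1.09 ± 0.25, the condensin II subunit gene Ncapd3 by -0.80 ± 0.13 and the condensin I subunit gene Ncaph by -0.70 ± 0.18. The largest opposite value was that of Wapl, which releases cohesin, at 0.17 ± 0.09 (adjusted p = 0.206). Of 7 regulators of mitotic entry 2 fell and 0 rose (28.6% lower). Foxm1, the transcription factor of late cell cycle genes, changed by -0.69 ± 0.19 (adjusted p = 0.0496, or 0.0606 with no detection filter) and Arpp19, an inhibitor of the phosphatase that opposes Cdk1, by -0.45 ± 0.07, while Cdc25b was at 0.04 ± 0.10 (adjusted p = 0.811).

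Of 14 genes of the anaphase-promoting complex, its helpers and separase control, 1 was lower and 0 were higher (7.14% lower, beside 10.1% of all genes). Anapc5, a subunit of the complex, changed by -0.65 ± 0.15, and Anapc2, which encodes its cullin subunit, had the largest opposite value, 0.24 ± 0.09 (adjusted p = 0.111). Of 6 other checkpoint genes Kntc1, of the complex that recruits dynein to kinetochores, changed by -0.58 ± 0.16 (adjusted p = 0.0458, or 0.0553 with no detection filter), and Mad2l1bp, whose product silences the checkpoint, rose by 0.65 ± 0.07 (adjusted p = 0.00757). Of 5 other cytokinesis genes Depdc1b changed by -0.48 ± 0.11, and Chmp4b, of the machinery that cuts the last bridge between daughter cells and also works in endosomes, rose by 0.52 ± 0.12 (adjusted p = 0.0300).

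**Figure D4:**
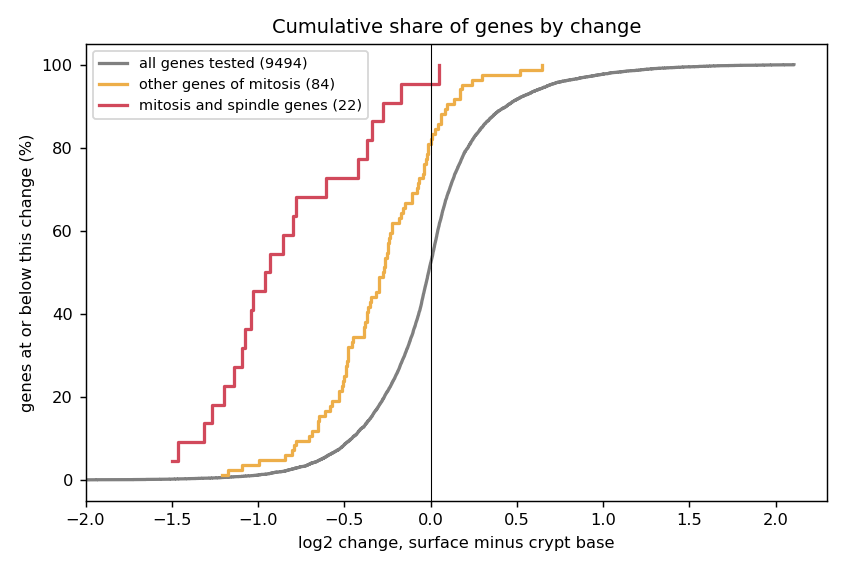
Curves give the cumulative percentage of genes at or below each log2 change, surface minus crypt base, for all 9494 genes tested, the 84 other genes of mitosis and the 22 mitosis and spindle genes. The medians are -0.01, -0.27 and -0.94.

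Markers of other cells were read beside these falls, as the summed linear signal of each list. Such a sum mostly follows the brightest genes of its list and is not a measure of cell content. The brightest were Acta2 and Actg2 for smooth muscle, Laptm5 for leukocytes and Krt8 for epithelium. Smooth muscle markers summed to 7519 to 29729 at the crypt base and to 2868 to 14266 at the surface, with 0 of 8 tested genes called in either direction and a median change of -0.83. The smooth muscle sum at the surface over that at the crypt base was 0.452, 0.396, 1.26 and 0.381 in replicates 1 to 4, and that of the 17 mitosis genes was 0.283, 0.754, 0.449 and 0.386. Both sums were lower at the surface in replicates 1, 2 and 4, and smooth muscle was higher there in replicate 3. Leukocyte markers summed to 1997 to 4851 at the crypt base and 1914 to 5689 at the surface, 0 of 6 were called, and Ptprc, Jchain and Itgam were at background on all 8 arrays. Fibroblast markers summed to 2663 to 4364 and 3160 to 3802, with 1 of 10 higher and 0 lower, and endothelial markers to 890 to 1185 and 1147 to 1374, with 1 of 7 higher and 0 lower. The part of these other cells in the falls was not tested. Epithelial markers rose in 5 of 8 genes and fell in 0, with sums of 7696 to 10245 at the crypt base and 12975 to 14771 at the surface. The epithelial sum was higher at the surface in all 4 pairs, and the sum of the 17 mitosis genes was lower in all 4. In the epithelial sum, a larger share of epithelial cells and higher levels per cell cannot be told apart, and its relation to the falls was not tested. Of the region markers, 5 of 5 tested surface colonocyte markers were higher at the surface and 4 of 5 tested crypt base markers were lower there. Lgr5, Ascl2 and Krt20 were at background on all 8 arrays. These lists were chosen with earlier results of these data known, so they are not an independent check of the labels.

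**Figure D5:**
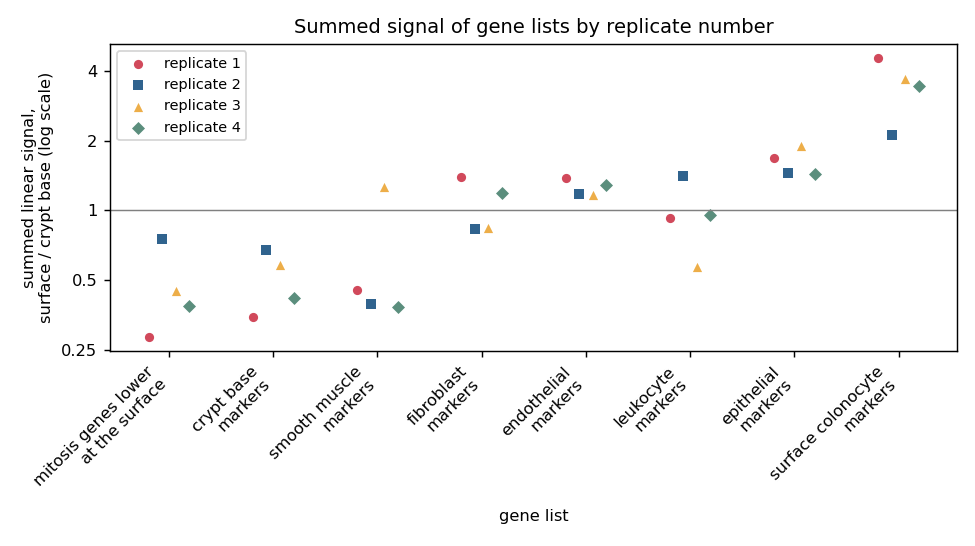
Points give, for each replicate number, the summed linear signal of a gene list at the surface divided by that at the crypt base, on a log scale. For the 17 mitosis genes that fell the ratios were 0.283, 0.754, 0.449 and 0.386 in replicates 1 to 4, and for surface colonocyte markers they were 4.54, 2.11, 3.67 and 3.46.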

How the data were processed

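The authors deposited log2 signals of 46632 probes on 8 arrays, already made equal in distribution between arrays (the sorted columns lay within 0.01 at 99.0% of ranks). The submitters' processing notes name GenomeStudio. Normalization and background steps are not given in the sources used here. Per the file headers, another deposited file lists detection p-values beside linear signals. Its 8 signal columns match no sample label and were not used. Its p-values were used only for how many arrays had p under 0.05. Background, 5.52, is the log2 signal above which the number of values equals the number of detections. Arrays give no read depth, and their number limits the precision.

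Gene names came from the platform annotation, where 29976 probes had 1 symbol, 10 had several and 16646 had none, and symbols were updated by gene ID from RefSeq (GRCm38.p6). A gene was tested if its probe was detected on 4 or more of the 8 arrays, with limma 3.58.1 in R 4.3.3 (statmod 1.5.0 for random blocks), two-sided, with a fixed block for replicate number, 3 residual and 3.09 prior degrees of freedom. The background correction and quantile normalization planned for raw signals were not needed. The design text says that each mouse gave both samples, and the labels do not state that the number marks the mouse. Across genes, deviations of same-numbered samples correlated at -0.04 (number 3) to 0.48 and those of unlike numbers at -0.49 to 0.31, so the pairing rests on the design text. The fit was tested on simulated data. The genes, lists and roles were chosen with earlier results of these data known. The naming rule gave values in every sample for the largest fall of each role and for each tested gene that did not pass, and up to 3 genes and the largest opposite change of each further list. Incenp was named outside that rule, after its values were seen. Alternatives changed the block, scaling, background, detection filter, probe rule, variance trend, array weights and samples.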

Additional observations from a re-analysis of the deposited data

Results flagged for a closer look

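In 44 sets of 4 values, 1 sample stood farther from the others than Dixon's 95% limit for 4 samples in 3 sets. About 1 in 20 such sets is flagged by chance. Plk1 in surface 2 was high at 8.18 on the log2 scale, where the other surface samples lay from 7.59 to 7.64. Bub1 in surface 2 was low at 5.78, where the others lay from 5.96 to 5.98. Kif2c in crypt base 1 was high at 8.15, where the others lay from 7.77 to 7.82.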

How the results depend on the processing

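The direction of all 22 tested genes was kept under all 15 alternatives that included them. Calls of mitosis and spindle genes ranged from 0 to 19 lower when 1 replicate number was left out, with 0 higher throughout. Over all genes the ranges were 0 to 1146 lower and 0 to 1157 higher, and for the other genes of mitosis 0 to 35 lower and 0 to 2 higher. Each such fit has fewer samples and residual degrees of freedom. Without the replicate block 579 genes were lower and 688 higher, and the block changed no call of a mitosis and spindle gene other than that of Cdc20. Without surface 4 and without the block 399 were lower and 532 higher, and of the other genes of mitosis 15 were lower and 1 higher, and Pbk, Bub1b, Cdc20 and Top2a lost their calls. Tacc3 passed with a random block (adjusted p = 0.0463) and with array weights (0.0496), and Cdk1 passed with array weights (0.0343). Without replicate 2 Cdk1 (0.0380) and Mad2l1 (0.0251) passed. Why these settings moved the calls was not tested. Quantile normalization, centring, the mean of detected probes and a variance trend changed no call of the 22 genes. The deposited values were already equal in distribution, so quantile normalization and centring had little left to change. Of the 22 genes, Top2a alone had another probe detected on at least 4 arrays, so the probe rule could change Top2a alone. These settings are thus weak checks of the calls. For the 13 genes that were not tested, 5 of 104 signals were above background, which limits what their values can show.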

Other observations

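The 111 other genes of mitosis with a promoter window held TTTGAA in 38 cases (34.2%) and an E2F-type sequence in 35 (31.5%), beside 18.1% and 9.69% of all genes. The 15 windows of mitosis and spindle genes that fell held TTTGAA in 12 (80%) and an E2F-type sequence in 0, and the 12 windows of those not tested held TTTGAA in 10 (83.3%) and an E2F-type sequence in 2 (16.7%). The 4 windows of those tested that did not pass held TTTGAA in 1 (25%) and an E2F-type sequence in 2 (50%). These are counts, and no difference between them was tested.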
